A study of Homo sapiens with 6 samples.

Results

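The 8 genes described here belong to steroid receptor signalling and to the luminal cell programme of the prostate: the glucocorticoid receptor gene NR3C1, its targets FKBP5 and TSC22D3, and the prostate genes STEAP1, STEAP2, PMEPA1, TMPRSS2 and HOXB13. They were chosen by gene symbol, and all 8 were found among the 24305 symbols of the gene tables. Total RNA was profiled in 6 libraries of DU 145, an established castration-resistant human prostate cancer line that the study takes as a model lacking homologous recombination repair (HRR). The 3 treated libraries came from cells kept for 48 h with talazoparib, an inhibitor of the DNA repair enzymes PARP1 and PARP2. The 3 control libraries came from cells given vehicle for the same time, which the labels spell DMOS and which is read here as DMSO. The labels do not say which talazoparib concentration was sequenced or whether the replicates were separate cultures, so the p-values below may reflect technical spread alone.

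Steroid receptors are transcription factors that wait in the cytoplasm in a complex with the chaperone HSP90 and its partner proteins. When hormone binds, the receptor enters the nucleus and acts at response elements, which for the glucocorticoid receptor are built from inverted copies of a hexamer close to AGAACA. FKBP5 and TSC22D3 are among its best known targets. Luminal prostate cells, the secretory layer of the gland, express HOXB13, TMPRSS2 and the STEAP proteins, several of which are induced by androgen. All levels below are for a whole culture, in which fewer cells of a type and less RNA per cell cannot be told apart.

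RefSeq start-site windows of build GRCh38.p14 were matched for 6 of the 8 genes, in all but 1 case at more than 1 start, giving 20 windows of 300 bases (250 before a start and 50 from it). Stretches of 260 bases are shown for 1 window each of 4 genes, chosen after the matches were known, because FKBP5 and TSC22D3 are both glucocorticoid targets but differed in direction in the first fit described below, and STEAP1 and STEAP2 are neighbours that were both lower in it. Capitals mark matches to AGAACA, to TATAAA or to the GC box GGGCGG on either strand, and each sequence is read 5′ to 3′ on the gene's strand.
FKBP5, chr6:35728574-35728833, minus strand: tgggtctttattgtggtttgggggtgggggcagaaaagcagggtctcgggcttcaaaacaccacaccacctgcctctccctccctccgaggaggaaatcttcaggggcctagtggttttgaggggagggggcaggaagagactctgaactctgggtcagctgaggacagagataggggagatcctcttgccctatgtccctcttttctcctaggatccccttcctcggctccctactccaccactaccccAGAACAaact
TSC22D3, chrX:107717053-107717312, minus strand: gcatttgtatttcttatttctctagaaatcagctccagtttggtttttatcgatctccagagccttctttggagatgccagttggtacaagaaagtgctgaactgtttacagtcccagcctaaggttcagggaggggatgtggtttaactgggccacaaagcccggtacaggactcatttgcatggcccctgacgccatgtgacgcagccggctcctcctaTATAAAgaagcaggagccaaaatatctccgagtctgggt
STEAP1, chr7:90154219-90154478, plus strand: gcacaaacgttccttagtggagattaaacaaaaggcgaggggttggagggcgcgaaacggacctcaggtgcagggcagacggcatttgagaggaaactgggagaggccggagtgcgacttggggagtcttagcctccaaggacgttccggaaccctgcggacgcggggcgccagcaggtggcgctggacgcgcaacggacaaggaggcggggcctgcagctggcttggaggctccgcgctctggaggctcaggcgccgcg
STEAP2, chr7:90211490-90211749, plus strand: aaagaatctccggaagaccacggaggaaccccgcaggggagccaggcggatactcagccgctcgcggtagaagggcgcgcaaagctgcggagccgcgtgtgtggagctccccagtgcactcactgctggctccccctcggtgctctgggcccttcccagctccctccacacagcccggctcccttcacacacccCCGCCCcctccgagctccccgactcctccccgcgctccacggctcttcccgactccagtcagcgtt
The FKBP5 window held AGAACA at position 1, the start itself. The TSC22D3 window held TATAAA, the STEAP2 window held the reverse complement of the GC box, and the STEAP1 window held none of the 3 motifs. The windows of 1 gene differed: the other FKBP5 window held 6 GC boxes and no AGAACA, the other 3 TSC22D3 windows held GC boxes and no TATAAA, and the other STEAP2 window held TATAAA and no GC box. Over the 20 windows, AGAACA or its complement TGTTCT was found in 3, against 14.8% of 35116 windows of the same length. GGGCGG or CCGCCC was found in 12 (45.0% of all windows), TATAAA or TTTATA in 3 (11.5%), and the spaced palindrome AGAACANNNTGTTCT in 0. The other 2 windows with AGAACA belonged to PMEPA1. The counts are per gene and do not separate start sites.

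The libraries were of like depth, with 39123997 to 39585727 counts each and 18027 to 18344 genes with a count. Of the 8 genes, 6 passed the filter on low counts and were tested with edgeR (quasi-likelihood F-test), p-values being adjusted by Benjamini and Hochberg's method over all 14452 tested genes. Of these 6, 1 (TSC22D3) was higher under talazoparib, 4 were lower (NR3C1, FKBP5, STEAP1 and STEAP2) and 1 (PMEPA1) did not pass 0.05. The background was high, since 56.7% of all tested genes passed, 26.8% higher and 29.9% lower. The groups did not overlap in CPM (counts scaled to effective library size) for 5 of the 6, against 64.4% of all tested genes. The median log2 fold change was -0.57 over the 6 genes and 0.00 over all tested genes.

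Fold changes across all genes moved with transcript composition. The decile of lowest GC content had a median of -0.73 on the log2 scale, and the decile of highest GC content a median of 0.43. By deposited length the shortest decile was at 0.34 and the longest at -0.65. The controls differed along the same measures: control replicate 1 against the mean of control replicates 2 and 3 was at -0.22 in the decile of lowest GC content and 0.18 in the highest, and at 0.18 in the shortest decile and -0.22 in the longest (medians of log2 CPM differences). Without control replicate 1 the plain fit again gave 1 of the 6 genes higher and 4 lower, beside 3858 and 4548 of all 14724 genes tested. The test was also run with each library's trend over GC content and length removed, for the 13130 tested genes with both values, and it is called trend-removed below. In that fit 44.9% of genes passed (22.4% higher and 22.5% lower), and of the 6 genes 3 were higher (NR3C1, FKBP5 and TSC22D3) and 2 lower (STEAP1 and PMEPA1), with a median of 0.01. Without control replicate 1 the trend-removed fit gave 2 of these higher (FKBP5 and TSC22D3) and 1 lower (STEAP1). Over all genes that fit gave 2977 higher and 2854 lower of 13298. The part of composition in each result was not tested beyond these values.

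**Figure D1:**
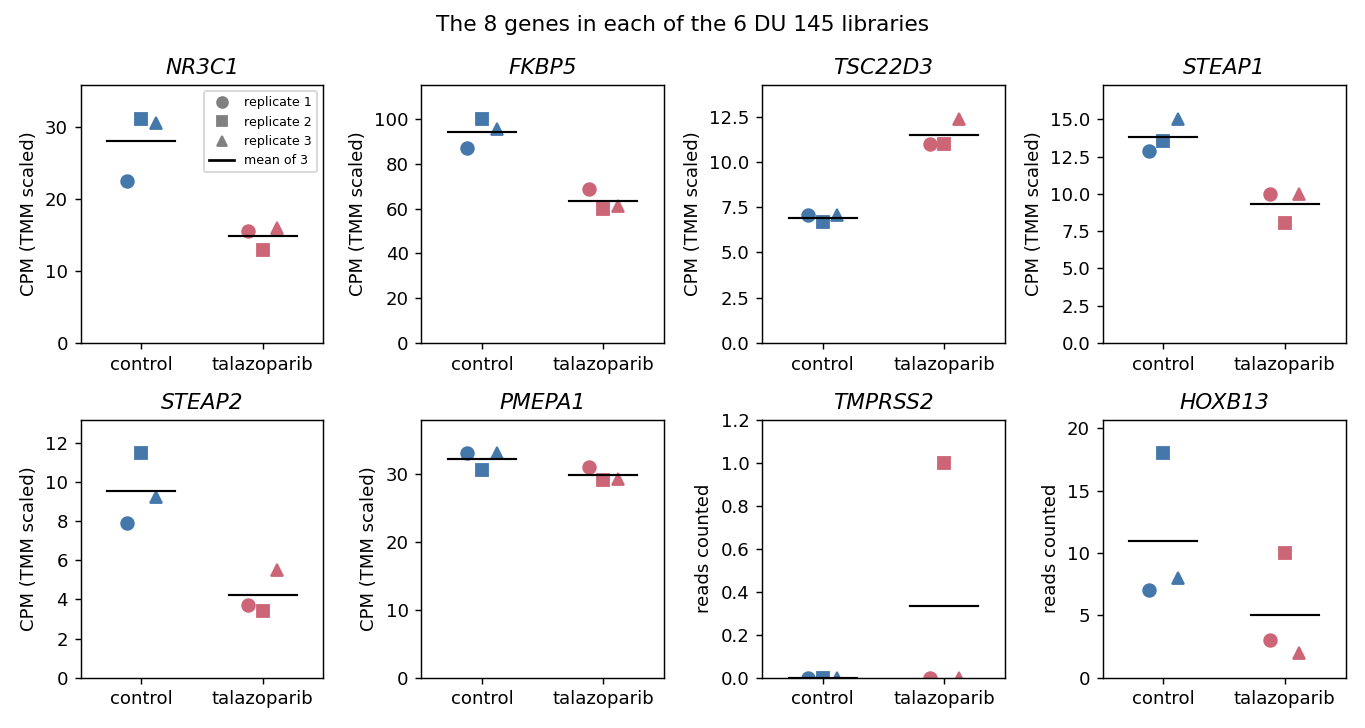
Level of each of the 8 genes in every library, in CPM for the 6 tested genes and in reads counted for TMPRSS2 and HOXB13, with 1 point per replicate and a line at each group's mean. The talazoparib points of TSC22D3 lie above all control points, those of NR3C1, FKBP5, STEAP1 and STEAP2 lie below, and those of PMEPA1 and HOXB13 overlap with the controls.

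NR3C1, which encodes the glucocorticoid receptor (chromosome 5, 143277931 to 143435512, minus strand, GRCh38), was lower under talazoparib before composition was considered. Its level was 22.4, 31.1 and 30.4 CPM in control replicates 1, 2 and 3, and 15.5, 12.9 and 16.0 CPM in the talazoparib replicates. Every talazoparib library lay below every control library, and control replicate 1 lay below the other controls. The means were 27.99 ± 4.84 and 14.8 ± 1.67 CPM (SD, n = 3 each), and the log2 fold change was -0.92 ± 0.14 (SE, edgeR adjusted p = 0.000204). NR3C1 is a long, GC-poor gene, with 39.1% GC in its longest transcript. The 212 tested genes that shared its deciles of GC content and length had a median log2 fold change of -1.05. Trend-removed, the difference turned to 0.21 ± 0.07 (edgeR adjusted p = 0.0364), and it missed 0.05 without any 1 of the 6 libraries (adjusted p 0.0533 to 0.12, log2 fold change 0.19 to 0.23). The deposited length of 20396 bases was above the 9172 bases of the gene's combined exons in GENCODE 29. With the longest GENCODE transcript, of 7286 bases, in place of the deposited length the trend-removed difference was -0.00 (edgeR adjusted p = 0.97). No direction of NR3C1 therefore held over these fits.

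FKBP5 encodes FKBP51, a co-chaperone of the receptor complex that lowers the glucocorticoid receptor's affinity for hormone and is itself induced by it (chromosome 6, 35573585 to 35728583, minus strand). Control libraries had 87.0, 100.2 and 95.6 CPM and talazoparib libraries 68.9, 59.8 and 61.3 CPM. The groups did not overlap. The means of 94.3 ± 6.73 and 63.3 ± 4.89 CPM (SD, n = 3 each) gave a log2 fold change of -0.57 ± 0.09 (SE, edgeR adjusted p = 0.00018). FKBP5 has 41.5% GC and a deposited length of 10596 bases, and the 169 genes in the same deciles of both had a median of -0.99. Trend-removed, FKBP5 was higher by 0.30 ± 0.07 (edgeR adjusted p = 0.00514), and this call held without each library in turn (0.25 to 0.36). With GC content alone or length alone removed the difference was 0.060 and 0.010.

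TSC22D3 encodes GILZ, a leucine zipper protein induced by glucocorticoids that restrains inflammatory transcription factors (chromosome X, 107713221 to 107777342, minus strand). Control libraries had 7.06, 6.67 and 7.06 CPM and talazoparib libraries 11.0, 11.0 and 12.4 CPM. All talazoparib libraries were above all controls, and the controls lay close together. The means were 6.93 ± 0.226 and 11.5 ± 0.802 CPM (SD, n = 3 each), with a log2 fold change of 0.73 ± 0.13 (SE, edgeR adjusted p = 0.000549). Among the 122 genes in the same deciles of GC content and length the median was 0.27. Trend-removed, TSC22D3 remained higher by 0.55 ± 0.11 (edgeR adjusted p = 0.00168), and it passed 0.05 in all 28 alternative fits.

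The ratio of TSC22D3 to FKBP5 counts was 0.081, 0.067 and 0.074 in the controls and 0.160, 0.184 and 0.202 under talazoparib. TSC22D3 relative to NR3C1 went from 0.315, 0.214 and 0.232 to 0.710, 0.854 and 0.775. Neither ratio overlapped between groups. Of 4 ratios tested, each gave p = 0.1 in a two-sided exact permutation test (0.1 after adjustment over the 4), which is the smallest p that 3 against 3 libraries allow. The log2 fold changes of TSC22D3 and FKBP5 differed by 1.30, and by 0.25 trend-removed. Those of TSC22D3 and NR3C1 differed by 1.65, and by 0.34 trend-removed.

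**Figure D2:**
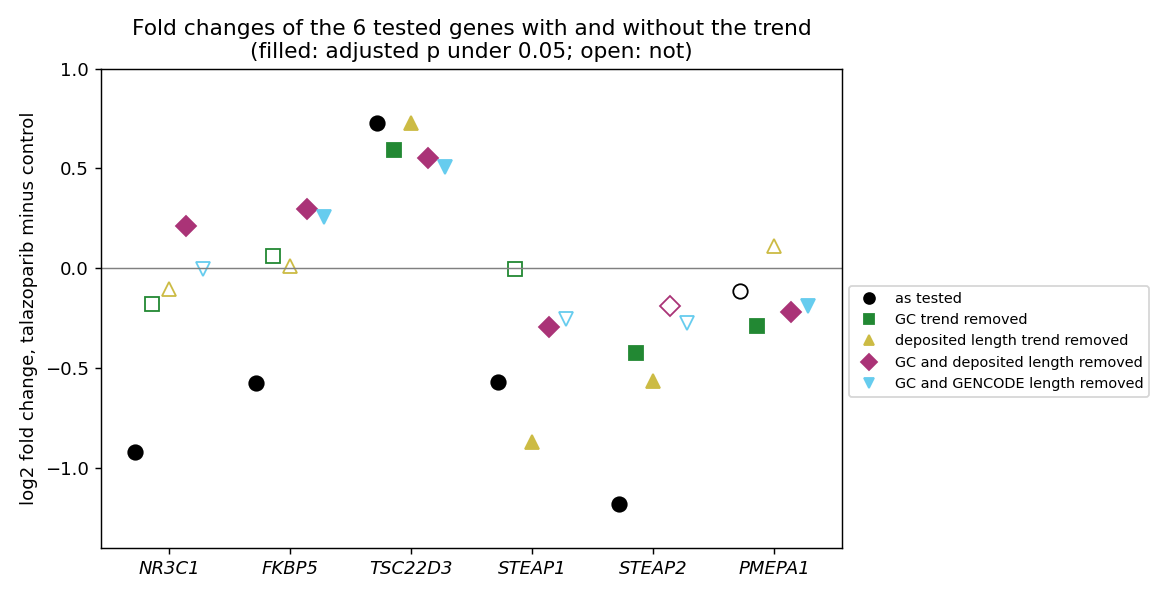
Log2 fold change (talazoparib minus control) of the 6 tested genes in the plain fit (black) and in 4 fits with composition trends removed, filled where the edgeR adjusted p was under 0.05. TSC22D3 stays above 0 and filled in each fit, while FKBP5 goes from -0.57 to 0.30 and NR3C1 from -0.92 to 0.21 when the GC content and deposited length trends are removed together.

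STEAP1 and STEAP2 encode six-transmembrane proteins of the prostate epithelium. STEAP2 reduces iron and copper with an NADPH-binding domain of its own, which STEAP1 lacks. The genes lie side by side on the plus strand of chromosome 7 (STEAP1 90154375 to 90164829, STEAP2 90167590 to 90238137). STEAP1 had 12.9, 13.6 and 15.1 CPM in the controls and 9.97, 8.03 and 9.99 CPM under talazoparib. These groups did not overlap, and the means of 13.8 ± 1.10 and 9.33 ± 1.13 CPM (SD, n = 3 each) gave a log2 fold change of -0.57 ± 0.14 (SE, edgeR adjusted p = 0.00351). With 42.5% GC but only 1219 bases, STEAP1 was in deciles whose 61 shared genes had a median of 0.06. Trend-removed it was lower by 0.29 (log2 fold change -0.29 ± 0.10, edgeR adjusted p = 0.0293), which held in 2 of 6 fits that left out a library, and with GENCODE lengths it was -0.26 (edgeR adjusted p = 0.052). With GC content alone removed STEAP1 was at -0.00 (edgeR adjusted p = 0.985), and with length alone removed at -0.87 (edgeR adjusted p = 0.000108). STEAP1 shares near-identical sequence with STEAP1B, so reads may have been split between them.

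STEAP2 had 7.92, 11.5 and 9.25 CPM in the controls and 3.72, 3.43 and 5.48 CPM under talazoparib. Every talazoparib library was below every control. The means were 9.54 ± 1.79 and 4.21 ± 1.11 CPM (SD, n = 3 each), and the log2 fold change was -1.18 ± 0.20 (SE, edgeR adjusted p = 0.000444), the largest of the 6 genes in size. STEAP2 has 36.9% GC and a deposited length of 11302 bases, and the 254 genes in the same deciles had a median of -1.07. Trend-removed the difference was -0.19 ± 0.13 and no longer passed (edgeR adjusted p = 0.267). STEAP2 still passed with GC content alone removed (-0.42, edgeR adjusted p = 0.0229) and with length alone removed (-0.56, edgeR adjusted p = 0.0115). STEAP2 counts per STEAP1 count were 0.614, 0.846 and 0.614 in the controls and 0.373, 0.427 and 0.548 under talazoparib, lower in all 3 talazoparib libraries. The log2 fold changes of STEAP2 and STEAP1 differed by -0.61, and by 0.10 trend-removed.

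The other STEAP family genes did not pass 0.05 in the plain fit. STEAP3, a ferrireductase of the endosome, was measured at 71.8 and 70.1 CPM, and its log2 fold change was -0.03 ± 0.08 (edgeR adjusted p = 0.728) but -0.28 trend-removed (edgeR adjusted p = 0.000786). STEAP1B was at -0.37 ± 0.18 (edgeR adjusted p = 0.0985), and STEAP4 had 1 to 6 counts in each library.

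**Figure D3:**
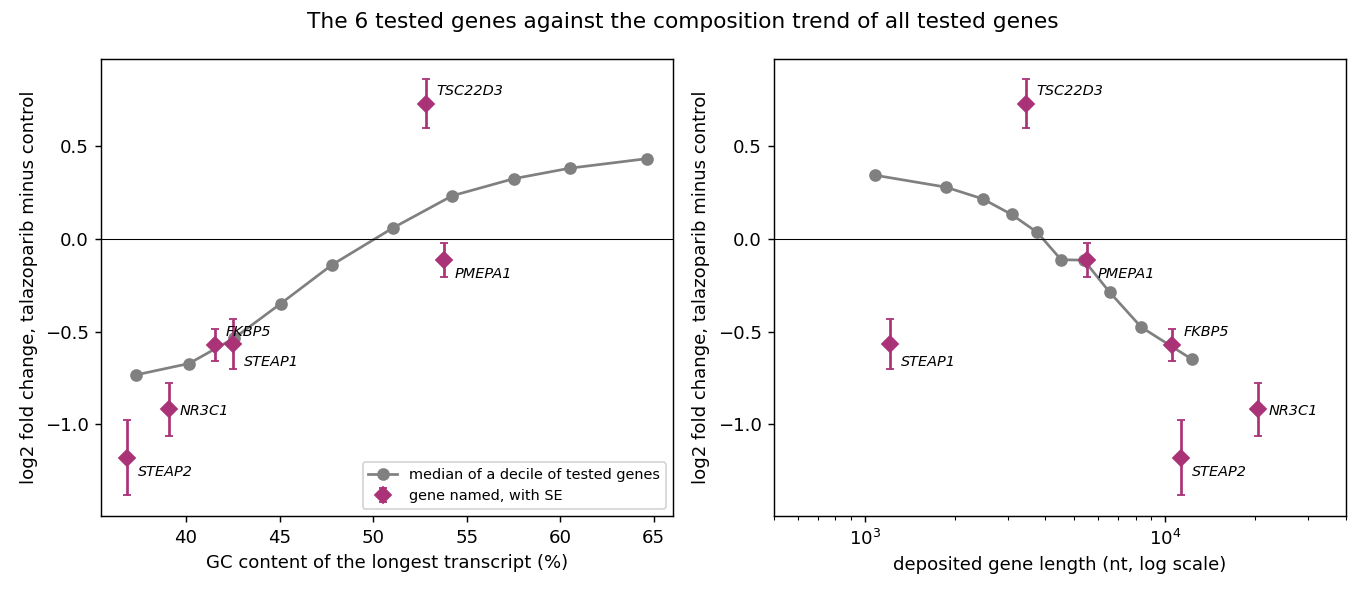
Log2 fold change against GC content in percent and against deposited length in bases (log axis), with the median of each decile of tested genes as grey points and the 6 tested genes of the group with their SE. NR3C1, FKBP5 and STEAP2 sit where the decile medians are below 0 in both panels, and TSC22D3 lies above the decile medians in both.

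PMEPA1 is induced by androgen and by TGF-beta and encodes a membrane protein that binds NEDD4-type ubiquitin ligases and dampens SMAD signalling (chromosome 20, 57648392 to 57711536, minus strand). Control libraries had 33.1, 30.6 and 33.1 CPM and talazoparib libraries 31.1, 29.1 and 29.2 CPM. Talazoparib replicate 1 lay above control replicate 2, so the groups overlapped. The log2 fold change was -0.11 ± 0.09 (SE, edgeR adjusted p = 0.305), and -0.22 ± 0.07 trend-removed (edgeR adjusted p = 0.0223), a call that held in 3 of 6 fits with a library left out. The antisense gene NKILA shares 343 exon bases with PMEPA1 and had 49 to 70 counts per library. The counting strand is not given in the sources used here, so reads within the shared bases cannot be assigned to either gene with certainty.

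TMPRSS2 and HOXB13 were not tested. TMPRSS2, the androgen-driven membrane protease that is fused to ERG in many prostate tumours (chromosome 21, 41464551 to 41531116, minus strand), had 1 count in talazoparib replicate 2 and 0 in the other 5 libraries. A count of 0 allows up to 3 counts, or 0.0758 to 0.0767 CPM scaled to total counts, for counting error alone. HOXB13, the homeobox factor that marks prostate lineage (chromosome 17, 48724763 to 48729178, minus strand), had 7, 18 and 8 counts in the controls and 3, 10 and 2 under talazoparib. The groups overlapped. Without the filter edgeR gave HOXB13 a log2 fold change of -1.04 ± 0.70 (edgeR adjusted p = 0.26), so a difference was not detectable at this depth.

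Per length, in deposited FPKM, the control order was STEAP1 at 11.6 ± 1.10, FKBP5 at 9.14 ± 0.892, PMEPA1 at 5.99 ± 0.176, TSC22D3 at 2.06 ± 0.0441, NR3C1 at 1.41 ± 0.276, STEAP2 at 0.869 ± 0.185 and HOXB13 at 0.0921 ± 0.0515 (SD, n = 3). No neighbours in this order overlapped in the controls. Under talazoparib the order was the same, but STEAP1 (7.47 ± 1.04) overlapped with FKBP5 (5.82 ± 0.466), and FKBP5 with PMEPA1 (5.27 ± 0.226). With GENCODE exon lengths FKBP5 came first in both groups and NR3C1 (3.14 on the FPKM scale) came above TSC22D3 in the controls. The level order of these genes therefore depends on the gene model.

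**Figure D4:**
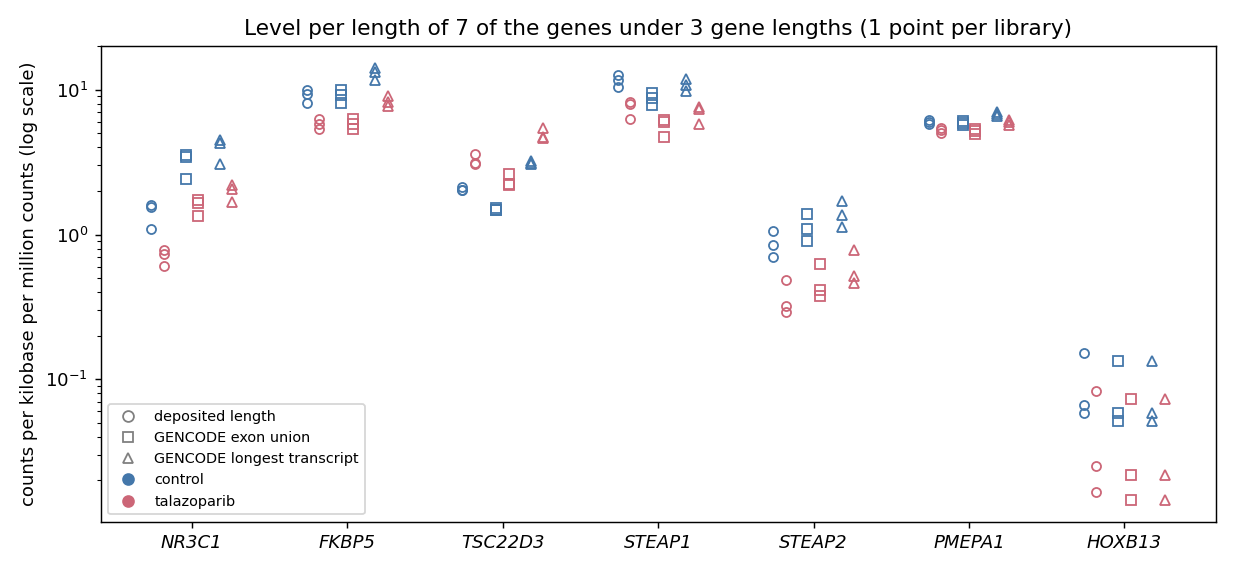
Level per length on a log axis in each library for 7 of the genes, with control and talazoparib points side by side and a marker for each of 3 gene lengths (deposited, GENCODE exon union, longest GENCODE transcript). FKBP5 and STEAP1 are highest and HOXB13 is lowest under each length, and NR3C1 shifts most with the length used.

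Likeness of pattern was taken as the smallest root-mean-square difference over the 6 libraries of log2 CPM deviations from each gene's mean. The mean level of a gene does not enter this measure. Among 10109 genes, the gene most like NR3C1 was INTS8 (0.029), followed by ITSN2 (0.0293). ITGA7 was most like TSC22D3 (0.032), FBXW8 most like FKBP5 (0.026), LHFPL6 most like STEAP1 (0.030), EVI5 most like STEAP2 (0.042) and RFLNB most like PMEPA1 (0.025).

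Other steroid receptor genes were scarce. ESR1 had 0 counts in all 6 libraries, and NR3C2, the mineralocorticoid receptor gene, had 0 to 10. ESR2, which encodes estrogen receptor beta, had 22, 24 and 23 counts in the controls and 8, 1 and 6 under talazoparib. It passed the filter on low counts only through the controls, so no fold or test is given for it. With NR3C1, 2 of 5 listed steroid receptor genes passed the filter. PGR was not analysed here. Over all tested genes 26.8% were higher and 29.9% lower (22.4% and 22.5% trend-removed), the shares to set beside each list here and below. Of 26 tested other nuclear receptor genes, 13 were higher and 8 lower (median 0.05), and 6 and 6 trend-removed. Without control replicate 3 the 13 became 7. Over all tested genes the plain fit gave 3873 higher and 4327 lower of 14452. It gave 2715 and 3752 of 14630 without control replicate 2, and 2622 and 3731 of 14642 without control replicate 3. Without talazoparib replicate 2 it gave 3349 and 3968 of 14702. These counts are to be set beside this and each later list count with a library left out.

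Among 16 receptor chaperones and immunophilins, FKBP5 included, 5 were higher and 5 lower (median 0.04), and 4 and 7 trend-removed (median -0.08). HSP90AA1, the inducible HSP90, had 1644 ± 304.1 CPM in the controls and 604 ± 48.8 CPM under talazoparib (SD, n = 3), a log2 fold change of -1.45 (edgeR adjusted p = 1.1e-05) and -1.15 trend-removed. PPID, the cyclophilin of the complex, was lower by 0.64 (log2 fold change -0.64, edgeR adjusted p = 0.000674). FKBP4, another immunophilin of the receptor complex, which favours nuclear entry, was at 0.16 ± 0.09 (edgeR adjusted p = 0.153). Without control replicate 3 the 5 higher genes became 3.

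Of 17 tested coregulators and pioneer factors, 3 were higher and 9 lower (median -0.50), beside 26.8% and 29.9% over all tested genes. Trend-removed 1 was higher and 13 lower, beside 22.4% and 22.5%. NRIP1 (log2 fold change -1.89), MED1 (-1.50) and NCOA2 (-1.44) fell in the plain fit and in the trend-removed fit (-0.99, -1.01 and -0.53). The 3 higher genes became 1 without control replicate 2, control replicate 3 or talazoparib replicate 2.

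The list of glucocorticoid-induced genes, which holds FKBP5 and TSC22D3, had 17 tested genes. Of these, 9 were higher and 5 lower (median 0.50), beside 26.8% and 29.9% over all tested genes. Trend-removed 9 were higher and 3 lower (median 0.30), beside 22.4% and 22.5%. ANGPTL4 rose from 39.0 ± 5.27 to 89.4 ± 3.60 CPM (SD, n = 3, edgeR adjusted p = 7.64e-06). NFKBIA, the inhibitor of NF-kappa B, rose from 172.5 ± 18.9 to 372.2 ± 17.7 CPM, a log2 fold change of 1.11. Trend-removed the log2 fold changes of ANGPTL4 and NFKBIA were 0.67 and 0.78, and DDIT4, a stress-induced inhibitor of mTORC1, was 0.91 and 0.44. SGK1 (log2 fold change -1.01), KLF9 (-0.87) and RGS2 (-1.63), chosen after their values were seen, were lower, also trend-removed. The 5 lower genes became 3 without control replicate 2.

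Androgen-induced genes, a list that holds 4 of the 6 tested genes here, had 26 tested genes. In the plain fit 4 were higher and 14 lower (median -0.38), beside 26.8% higher and 29.9% lower over all tested genes. Trend-removed, 7 were higher and 7 lower (median -0.03), beside 22.4% and 22.5%. UAP1 had a log2 fold change of -1.23 in the plain fit and -0.90 trend-removed, with MPHOSPH9 at -1.71 and -0.81 and ABCC4 at -0.87 and, no longer past 0.05, -0.16. KLK2 and KLK3 were not analysed here.

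Luminal genes, which include STEAP1 and STEAP2, divided. Of 14 tested, 3 were higher and 4 lower (median -0.05), and 2 and 4 trend-removed (median -0.15). The keratin gene KRT19 was higher by 1.13 (0.56 trend-removed). The 3 higher genes became 1 without control replicate 2 or 3. Of 9 tested basal genes, 6 were higher and 2 lower (median 0.48), and 5 and 1 trend-removed. LAMB3, a laminin chain, was at 0.83 and S100A2 at 0.99, while CAV1 was at -0.52. The basal keratin genes KRT5, KRT6A and KRT17, and DSG3, had 0 counts in all 6 libraries. The basal factor gene TP63 had 1 count in control replicate 3 and 0 elsewhere. None of these could be tested. Of 6 epithelial markers 2 were higher, KRT7 (0.98) and KRT19, and 0 were lower (median 0.24). Trend-removed 2 were higher and 2 lower (median 0.00), the lower ones being KRT8 (-0.07 in the plain fit, -0.37 trend-removed) and KRT18 (0.13 and -0.33), chosen after their values were seen.

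On the list of TGF-beta feedback genes, ligase partners and PMEPA1 itself, 14 genes were tested. Of these, 2 were higher and 7 lower (median -0.33), and 3 and 5 trend-removed (median 0.00). PMEPA1 was 1 of the 5 lower genes trend-removed. NEDD4, a ligase that PMEPA1 binds, was at -1.78 and -0.90 trend-removed. NEDD4L went from -0.81 to -0.03, and SMAD6, an inhibitory SMAD, was at 0.66 and 0.58. Without control replicate 2 or 3 the 7 lower genes became 4. In the TSC22 family and its WNK kinase partners, 2 were higher and 4 lower of 9, and 1 and 3 trend-removed. TSC22D3 was 1 of the 2 higher genes and the only 1 higher trend-removed. WNK1 was at -1.34 (-0.89 trend-removed) and OXSR1 at -0.78 (-0.44). TSC22D2 was at -0.80 and -0.07, and TSC22D4, chosen after its values were seen, at 0.58 and 0.05.

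Around TMPRSS2, 5 of 16 listed membrane serine proteases and inhibitors were tested, with 3 higher and 0 lower (median 0.88, and 0.44 trend-removed). SPINT1 and SPINT2, inhibitors of such proteases, were at 1.23 and 0.88, and trend-removed at 0.82 and 0.44. ST14, encoding matriptase and chosen after its values were seen, went from 24 to 28 counts in the controls to 104 to 114 under talazoparib, a log2 fold change of 2.14. Around HOXB13, 14 HOX and cofactor genes were tested, with 3 higher and 4 lower (median -0.08), and 0 and 4 trend-removed. HOXB7 was at 0.40 and MEIS2 at -0.80, and trend-removed at 0.16 and -0.08, neither past 0.05. The 3 higher genes became 1 without control replicate 3.

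Of 12 tested steroid metabolism genes, 5 were higher and 2 lower (median 0.26), and 6 and 0 trend-removed. H6PD, which supplies cofactor to the cortisol-forming enzyme, was at 0.36 (0.51 trend-removed). The gene of that enzyme, HSD11B1, had 4 counts in control replicate 3 and 0 elsewhere, and was not tested. AKR1C1 (log2 fold change 1.03, 1.64 trend-removed), AKR1C2 (1.61, 2.20) and AKR1C3 (0.75, 1.16) were chosen after their values were seen. Their sequences are similar, so reads may have been split between them. Of 14 iron and copper genes, 5 were higher and 5 lower (median -0.14), the 5 higher becoming 3 without control replicate 2, and trend-removed 7 were higher and 3 lower (median 0.14). Of 3 tested neuroendocrine genes, 1 was higher and 0 lower. This gene, ENO2, was at 0.41 and, no longer past 0.05, at 0.07 trend-removed.

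CD68, a lysosomal protein, made up most of the summed level of the stromal, endothelial and immune markers. Of 10, 5 had 0 counts in all libraries and 3 were tested, with 1 higher. The summed level of the markers, scaled to total counts, was 28.3 to 30.8 CPM in the controls and 64.7 to 71.1 CPM under talazoparib. CD68 was higher by 1.35. The part of CD68 in the results above was not tested.

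**Figure D5:**
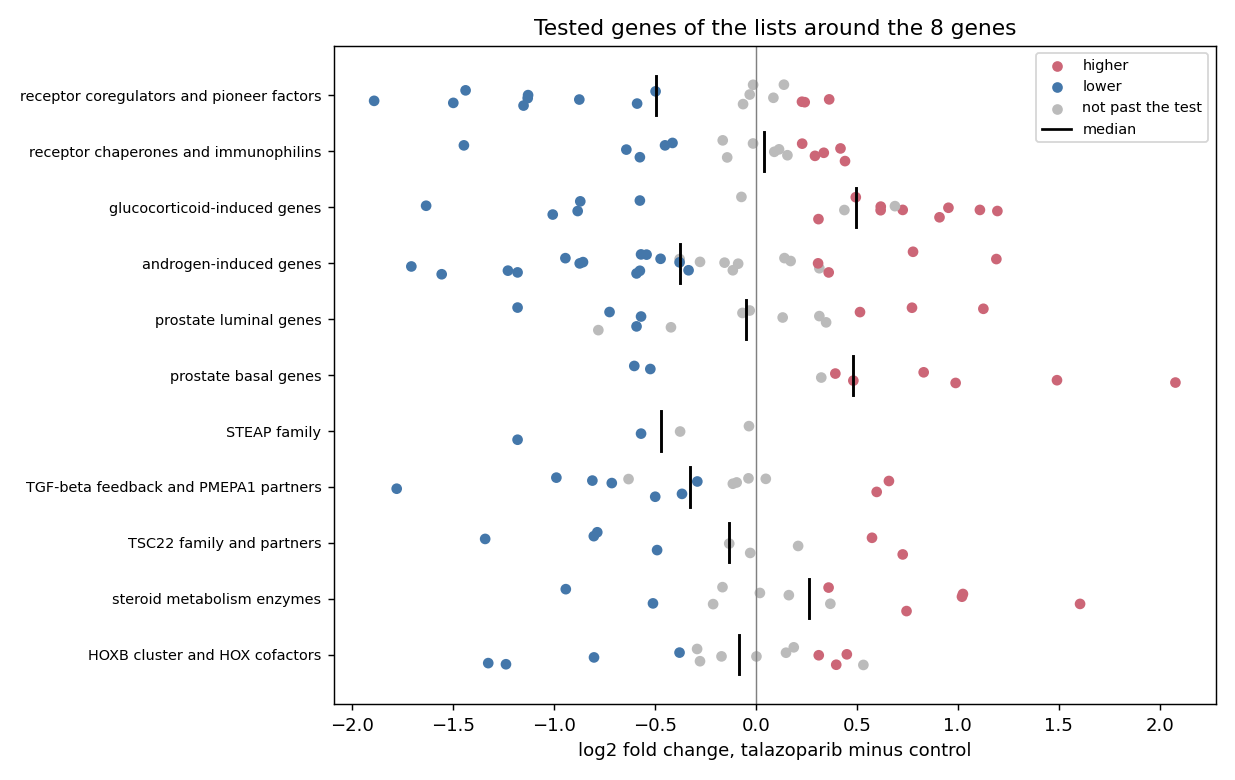
Log2 fold change in the plain fit of each tested gene (1 point per gene) in 11 of the lists, coloured by whether it was higher, lower or not past the test, with a bar at the list's median. The coregulators (median -0.50) and androgen-induced genes (-0.38) lie mostly below 0 and the glucocorticoid-induced genes (0.50) mostly above, as counted in the text.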

How the data were processed

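RNA of 6 DU 145 libraries was analysed from gene tables that the authors deposited as raw counts per gene and as FPKM. Trimmomatic, HISAT2, Cufflinks, HTSeq and GRCh38 are named in the submitters' processing notes (versions, annotation, strand setting: not given in the sources used here). Counts were tested with edgeR 4.0.16 (quasi-likelihood, robust, TMM scaling, filterByExpr with a minimum count of 10) in R 4.3.3, with Benjamini-Hochberg adjustment over all tested genes and a threshold of 0.05. CPM use TMM-scaled library sizes, except where the text says that they are scaled to total counts. Composition trends were removed as offsets from natural splines with 5 degrees of freedom over GC content (longest GENCODE 29 transcript) and log2 length, the length being that implied by the deposited counts and FPKM, for 90.9% of tested genes. The scripts were tested on simulated data. Alternatives were other scalings, filters, DESeq2 1.42.0, limma 3.58.1 on counts or on log2(FPKM + 1) or log2(FPKM + 0.1), a fold threshold of 1.2, a replicate block and each library left out. Library totals, given in the report, limit precision for genes of a few counts.

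The 8 genes and the 18 lists were chosen with earlier results of these data known. Besides the 8 genes, the text names from each list up to 3 tested genes with the smallest adjusted p and a mean of at least 5 CPM, a fixed set of receptor and marker genes, and the genes most alike in pattern. The text marks any other listed gene given with a fold change as picked once values were known. HSD11B1, KRT5, KRT6A, KRT17, DSG3 and TP63 are not marked there, and they too were named outside these rules with their counts known. Cells of the PC-3 line were not analysed here. Results for some listed genes are not reported here.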

Additional observations from a re-analysis of the deposited data

How the results depend on the processing

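Of the 8 genes, 5 passed in the plain fit and under every scaling, filter and tool tried. Over all genes 7915 to 8295 passed under the other scalings, filters and tools. The count was 3 with the GC trend or the length trend removed alone, 3 with the replicate block and both trends removed, 3 with both trends removed by GENCODE lengths, and 2 to 4 with both trends removed and each library left out. Of 13130 genes, 5933 passed with the GC trend removed alone, 7167 with the length trend removed alone and 5841 with GENCODE lengths. With both trends removed and each library left out, 4371 to 5831 of 13235 to 13298 genes passed. The sign turned for NR3C1 with both trends removed (0.21, also 0.21 with the replicate block, and 0.19, 0.20 and 0.23 without control replicates 1, 2 and 3 and 0.22, 0.19 and 0.22 without talazoparib replicates 1, 2 and 3). It turned for FKBP5 with both trends removed (0.30, 0.30 with the replicate block, 0.26 with GENCODE lengths, and in the same order of libraries left out 0.35, 0.27, 0.26, 0.26, 0.25 and 0.36), with GC alone (0.060) and with length alone (0.010). The length trend alone gave PMEPA1 0.11 and STEAP3 0.13, and STEAP3 ranged from -0.0738 to 0.0038 with each library left out of the plain fit. TSC22D2 was at 0.031 with GENCODE lengths. The cause of these changes was not tested. Over all genes 8200 passed, 5325 against a fold threshold of 1.2, 4998 with the replicate block and both trends removed, and 6353 to 8549 without each library. Total count scaling moved the median of all genes to -0.07 and gave 3374 higher and 4665 lower. With the replicate number as a block 7580 genes and 5 of the 8 passed; same-numbered libraries correlated at -0.09, -0.17 and 0.00 in their deviations, so the numbers were not taken to pair the samples. Depth limits TMPRSS2, HOXB13, STEAP4 and NR3C2, with a few counts per library.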
